A study of Mus musculus with 13 samples.

Results

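Mitosis genes encode the proteins that carry a cell through division, and their mRNAs were followed here in 5 groups of mouse stomach samples. The set was a list of 41 genes with a known role in mitosis. A gene counted as measured where the array held a probeset, a group of probes read as 1 value, that the platform annotation gives to that gene alone, and where several existed the one with the highest mean over the arrays was taken. By that rule 36 of the 41 genes were measured, out of 18820 genes in all. Ccnb1, Foxm1, Kif20a, Nusap1 and Ube2c had no such probeset and were not analysed here, so the B-type cyclin below is Ccnb2 and the transcription factor Foxm1 has no value.

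RNA came from the gastric corpus or from cultures of its cells, on 13 Affymetrix arrays. The mice carried an EGFP-ires-CreERT2 cassette in the Tnfrsf19 (Troy) locus, which places the green reporter under the gene's own regulatory sequence. Reporter-positive chief cells (3 arrays, a to c) and reporter-positive parietal cells (2 arrays, a and b) were sorted by FACS from corpus glands of 10 mice per array, about 100000 cells each, after EDTA and trypsin. Whole corpus glands (2 arrays, a and b) were processed directly as the reference, without trypsin or sorting, and their labels name no reporter mouse. Organoids, three-dimensional cultures, were grown from single sorted reporter-positive chief cells and kept in EGFNWR medium (3 arrays, a to c), which holds EGF, Gastrin, FGF10, Noggin, Wnt3a and Rspondin, or in ER medium with EGF and Rspondin alone (3 arrays, a to c). The labels give no age of the mice and no time in either medium, and they do not tie the organoid cultures to separate animals. P-values therefore measure the spread between these arrays, which may be technical. The protocol speaks of intestines for the sorted cells, while every other label says gastric corpus.

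In a dividing cell, cyclins A and B switch on the kinase Cdk1, Aurora and Polo kinases build the spindle, and the kinetochore ties each chromosome to it. The spindle checkpoint holds the anaphase-promoting complex back until every chromosome is attached, after which the central spindle and the contractile ring split the cell. In the corpus gland most division takes place in the isthmus between pit and neck, while mature chief and parietal cells divide rarely. Many mitosis genes are switched on together late in the cycle through promoters in which the DREAM complex, B-Myb and FoxM1 act at a CHR element (cell cycle genes homology region) and NF-Y binds CCAAT boxes.

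Promoter windows of the members were read for these motifs, since the genes moved together on the arrays. The windows (RefSeq, assembly GRCm38.p6) run from 250 bases before to 50 bases after a transcript start, and 34 of the 41 genes have 1. The CHR element was searched as TTTGAA and, in its second form, as TTCGAA. The box that NF-Y binds was searched as CCAAT. The E2F motif was searched in 4 forms. The first was TTCCCGC and the second was the variant written TTCGCGC. The third form of the motif was TTGCCGC and the last of these variants was TTGGCGC. Both strands were read for every motif, and different motifs may overlap. The stretches below cover 120 bases before to 20 after the start, 5′ to 3′ along the gene's strand, with CHR and CCAAT matches in capitals (TTCAAA and ATTGG where the match lies on the opposite strand). They were picked for display after the matches were seen. Ccnb2, with 3 evenly spaced CCAAT boxes and a CHR at the start, lies at chr9:70421535-70421674, minus strand. Cdk1 (chr10:69352893-69353032, minus strand), Cdc20 (chr4:118437324-118437463, minus strand) and Hmmr (chr11:40733418-40733557, minus strand) hold several CCAAT boxes and at least 1 CHR. Racgap1 (chr15:99651637-99651776, minus strand) and Kif11 (chr19:37376262-37376401, plus strand) hold 1 of each in the stretch. Mki67 (chr7:135716360-135716499, minus strand) has a pair of CHR matches there but its CCAAT boxes lie farther upstream, and Nuf2 (chr1:169531445-169531584, minus strand) has neither motif in its window.
Ccnb2: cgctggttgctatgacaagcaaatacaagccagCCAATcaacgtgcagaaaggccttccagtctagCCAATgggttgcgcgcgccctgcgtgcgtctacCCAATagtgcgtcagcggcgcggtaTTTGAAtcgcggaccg
Cdk1: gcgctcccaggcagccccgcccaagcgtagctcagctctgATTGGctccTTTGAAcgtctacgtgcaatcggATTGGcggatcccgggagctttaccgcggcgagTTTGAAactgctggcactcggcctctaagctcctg
Cdc20: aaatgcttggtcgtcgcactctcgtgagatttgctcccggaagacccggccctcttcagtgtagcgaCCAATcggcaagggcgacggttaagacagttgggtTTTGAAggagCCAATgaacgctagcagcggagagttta
Hmmr: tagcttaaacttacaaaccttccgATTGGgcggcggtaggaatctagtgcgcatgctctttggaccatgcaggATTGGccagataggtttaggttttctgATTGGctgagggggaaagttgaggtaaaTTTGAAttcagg
Racgap1: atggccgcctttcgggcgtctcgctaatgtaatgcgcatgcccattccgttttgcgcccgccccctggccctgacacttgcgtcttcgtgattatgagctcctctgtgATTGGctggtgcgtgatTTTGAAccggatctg
Kif11: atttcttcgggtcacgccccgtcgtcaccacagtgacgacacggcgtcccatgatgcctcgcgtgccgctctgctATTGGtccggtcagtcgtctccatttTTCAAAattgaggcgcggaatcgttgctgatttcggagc
Mki67: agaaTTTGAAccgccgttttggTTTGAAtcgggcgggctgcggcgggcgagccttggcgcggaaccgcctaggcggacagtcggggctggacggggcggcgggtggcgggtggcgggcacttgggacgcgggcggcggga
Nuf2: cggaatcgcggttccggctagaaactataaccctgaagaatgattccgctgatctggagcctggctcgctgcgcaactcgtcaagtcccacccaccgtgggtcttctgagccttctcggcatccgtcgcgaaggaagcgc

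A CHR match stood in 26 of the 34 genes with a window (76.5%), against 21.7% of all 27025 genes with a window. A CCAAT box was held by 25 (73.5%, all genes 41.1%), and both motifs together by 22 (64.7%, all genes 8.61%). Among 19 DNA replication genes, which are switched on earlier in the cycle, CCAAT boxes were as frequent (68.4%) but CHR matches were few (26.3%). E2F motifs went the other way, with 6 of 34 mitosis genes (17.6%) and 13 of 19 replication genes (68.4%), against 10.9% of all genes. The matches were also placed differently along the promoter. Over all windows of the mitosis genes, 64 CCAAT matches had a median position of -66 from the start. The 39 CHR matches had a median of -5, with 19 of them after the start. Ect2 and Prc1 entered with both of their windows, which overlap, so their sites were counted once for each window. In Ccnb2 the 3 CCAAT boxes begin 33 and 33 bases apart. Of 18 mitosis genes with 2 or more CCAAT boxes, 9 had neighbours 30 to 35 bases apart (50%), against 13.6% of all such genes and 0 of 7 replication genes, a range of spacing chosen after the matches were seen. These are matches of letters only, and binding was not measured.

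**Figure D1:**
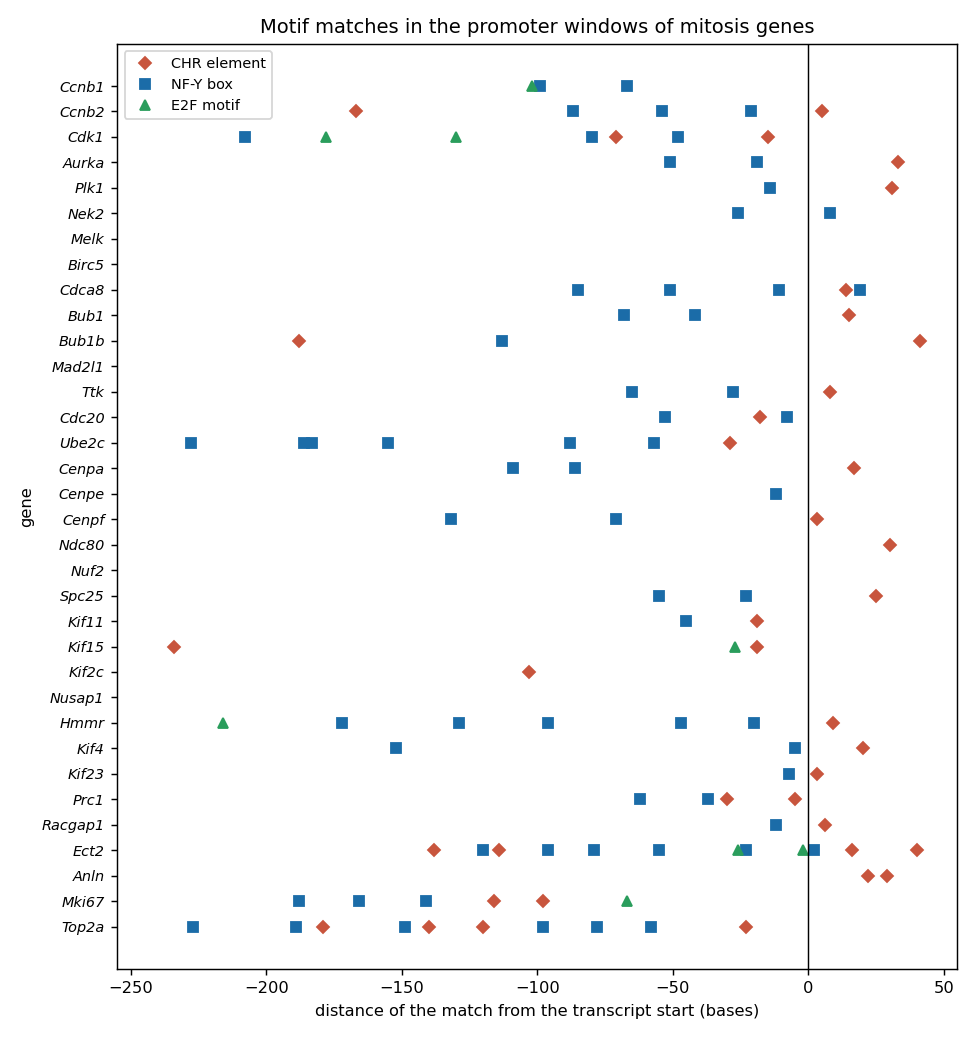
Positions of CHR (diamonds), CCAAT (squares, NF-Y box) and E2F (triangles) matches in the promoter windows of 34 mitosis genes; the horizontal axis is the distance in bases from the transcript start, and Ect2 and Prc1 show matches of both of their windows. CCAAT boxes gather at a median of -66 bases and CHR matches around the start, at a median of -5.

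Values on the arrays are log2 levels, so a difference of 1 is 2-fold. The array medians, taken over all probesets, lay between 5.01 and 5.30. No detection call was at hand, so a gene below the median of its array may be at background, where differences have no certain size. The median level of the 36 mitosis genes was 7.40, 7.40 and 7.86 on the EGFNWR organoid arrays and 6.88 and 7.30 on the gland arrays. It was 6.49, 6.92 and 5.26 on the chief arrays, 5.53, 6.50 and 6.14 on the ER organoid arrays, and 5.00 and 5.03 on the parietal arrays. EGFNWR organoids and glands thus lay highest and parietal cells lowest, with the chief and ER arrays spread between. By group mean and SD this was 7.55 ± 0.26 in EGFNWR organoids (n = 3), 7.09 ± 0.30 in glands (n = 2), 6.22 ± 0.86 in chief cells (n = 3), 6.06 ± 0.49 in ER organoids (n = 3) and 5.02 ± 0.02 in parietal cells (n = 2). In this order the arrays of glands and chief cells overlapped, as did those of chief cells and ER organoids, while EGFNWR organoids and glands, and ER organoids and parietal cells, did not. On the parietal arrays 20 and 23 of the 36 genes lay under the array median, on chief array c 18, on the ER arrays 13, 3 and 8, and on the EGFNWR arrays 0.

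Gene by gene the order was much the same. Group means ran EGFNWR organoids, glands, chief cells, ER organoids and parietal cells, from high to low, for 23 of the 36 genes. EGFNWR organoids were highest for 29 genes and glands for 7, and parietal cells were lowest for 33 and ER organoids for 3. The arrays of a group also differed together. Chief array b was the highest of its group for 34 genes and chief array c the lowest for 35, ER array b was highest for 36 and ER array a lowest for 35, and EGFNWR array c was highest for 33. In bulk RNA, fewer dividing cells and less mRNA per dividing cell cannot be told apart.

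**Figure D2:**
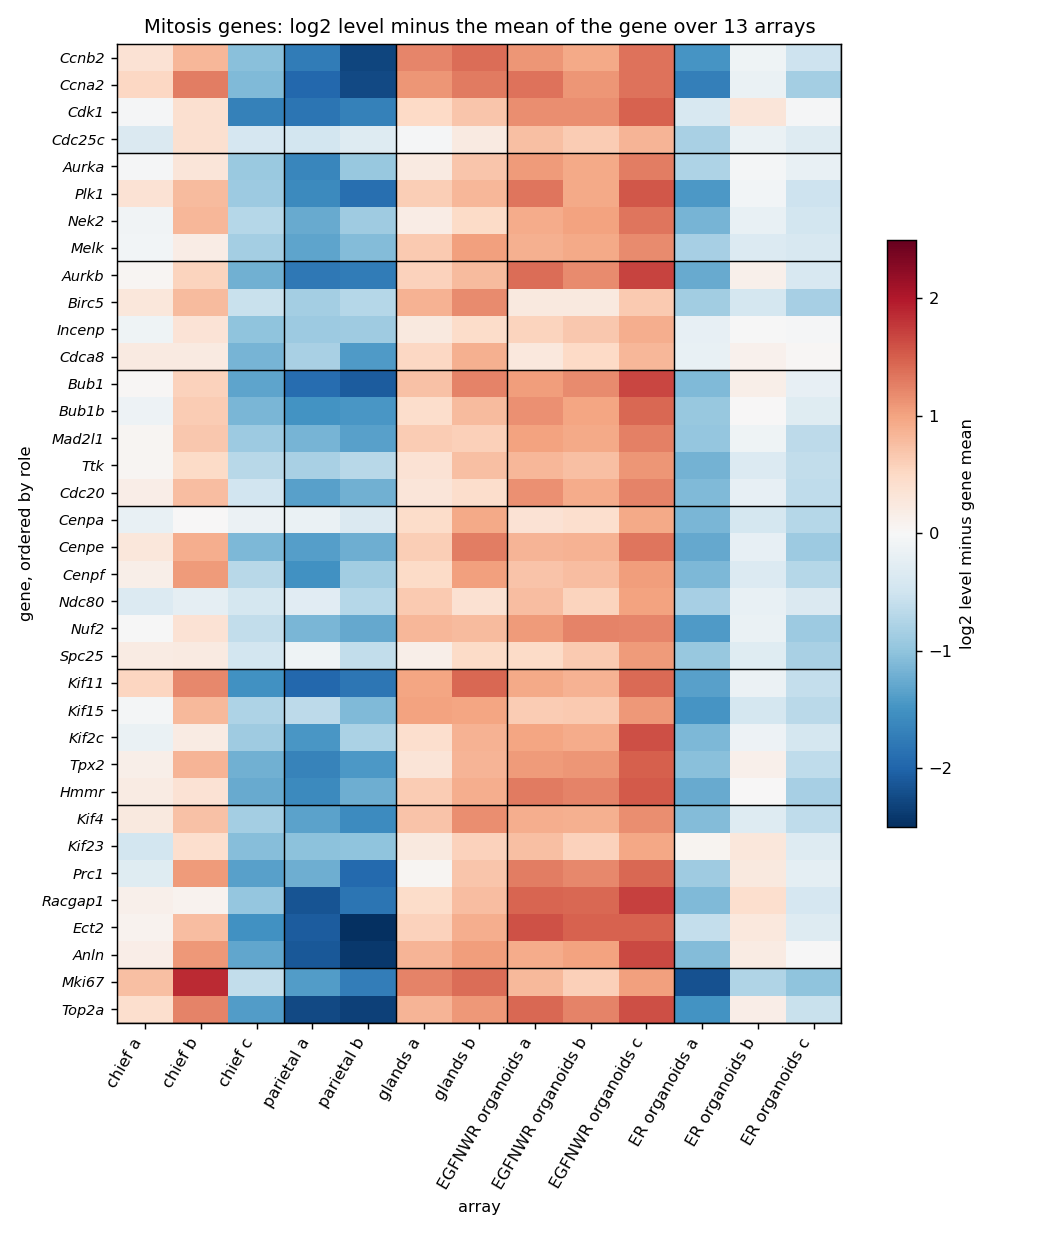
Log2 level of each of the 36 measured mitosis genes (rows, grouped by role) on each of the 13 arrays (columns), minus that gene's mean over the arrays; red is above and blue below the mean. The EGFNWR and gland columns are red in nearly every row, the parietal columns blue, and chief array c is bluer than chief arrays a and b.

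**Figure D3:**
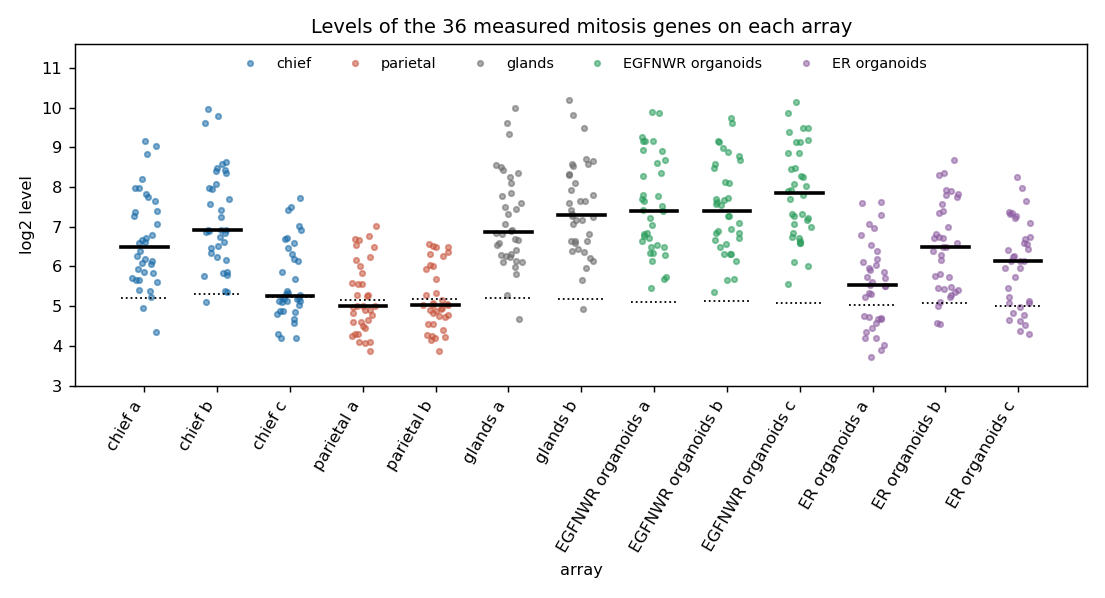
Log2 level of the 36 mitosis genes on each array (points), their median (solid line) and the median over all probesets of that array (dotted line). The solid line lies at 7.40 to 7.86 in EGFNWR organoids and at 5.00 and 5.03 in parietal cells, just under the dotted line there.

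Cell type markers bear on how these groups can be read. The 3 chief arrays were not alike. Chief array a correlated best with the gland arrays over all probesets, at 0.978 and 0.966, above its 0.953 and 0.950 with chief arrays b and c. Its 6 pit cell markers had a median of 12.22 against 9.75 and 10.12 on b and c and 12.63 and 12.88 in glands. On chief array c, values over all probesets correlated at 0.979 and 0.982 with the parietal arrays. The 9 parietal markers had a median level of 10.31 there, against 10.62 and 10.50 in sorted parietal cells and 9.92 and 8.38 on chief arrays a and b. Chief array b carried markers of squamous forestomach at a median of 8.21 over 6 genes, against 4.16 to 4.78 on the arrays of the other groups. All 9 parietal markers lay over the array median on every chief array. Chief markers (Pga5, Pgc, Bhlha15 and others, 8 measured of 9) had medians of 10.32, 10.52 and 8.85 in chief cells, 7.58 and 7.39 in parietal cells and 9.26 and 8.09 in glands. Pgc, Clps and Chia1 were near equal, at 13.23 to 13.62 in chief and 13.02 to 13.40 in parietal cells. Summed chief markers (log2 of the sum of linear levels) were 15.00 to 15.24 in chief and 14.82 to 14.84 in parietal cells, with 5 and 6 of 8 over the array median. In organoids the chief marker medians lay at 5.90 to 6.02 in EGFNWR and 4.40 to 5.09 in ER medium, but the members differed. Pga5 and Chia1 lay under the median on every organoid array, Pgc at 11.55 to 12.08 in EGFNWR and 7.54 to 10.12 in ER medium, and Clps at 10.35 to 11.26 over both media. Gpr137b was higher in organoids (7.31 to 8.53) than in chief cells (4.55 to 5.28), and Cpb1 and Lipf lay under the median on all 13 arrays. Leukocyte and stromal markers had medians of 3.90 to 4.54 on all 13 arrays, with some members well above. Cd68 lay at 6.01 to 9.63 over all arrays and at 9.35 to 9.63 in ER organoids, Csf1r reached 7.02 in ER organoids, and Dcn read 8.47 on chief array b. Summed levels on chief array b were 9.39 for leukocyte and 9.10 for stromal markers.

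The organoid experiment compared the full with the shorter medium. Mitosis genes were lower in ER than in EGFNWR medium almost without exception: 35 of 36 passed the test (limma, Benjamini-Hochberg adjusted p under 0.05 over all 18820 genes), all of them lower, where 10.1% of all genes were called lower and 9.13% higher. All 36 had every ER array below every EGFNWR array, as had 18.2% of all genes. The median difference was -1.66, or 3.16-fold, against 0.01 over all genes.

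Among the cyclins and the Cdk1 machinery, all 4 measured genes fell. Ccna2, the A-type cyclin of S and G2 phase, read 9.86, 9.62 and 9.86 in EGFNWR medium and 6.80, 8.35 and 7.65 in ER medium. Its difference was the largest of the set at -2.18 (SE 0.34, adjusted p = 0.00652). Ccnb2, the mitotic cyclin whose promoter is shown above, read 9.89, 9.73 and 10.13 against 7.30, 8.67 and 8.26. Cdk1, the kinase both activate, read 9.17, 9.16 and 9.48 against 7.61, 8.30 and 7.97, a difference of -1.31 (SE 0.18, adjusted p = 0.00494). No ER array of these genes reached an EGFNWR array. Cdc25c, the phosphatase that removes the brake on Cdk1, was dim, at 5.45, 5.35 and 5.56 against 3.90, 4.55 and 4.38.

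The 4 mitotic kinases all fell. Plk1, the Polo kinase of centrosome maturation and cytokinesis, read 9.16, 8.77 and 9.39 against 6.39, 7.76 and 7.31, a difference of -1.95 (SE 0.33, adjusted p = 0.00827). Aurka, the spindle pole kinase, differed by -1.43 (SE 0.19, adjusted p = 0.00471), from 7.72 ± 0.17 to 6.29 ± 0.38 (mean and SD, n = 3 each). Nek2, a kinase of centrosome separation, and Melk lay within the range of these, between -1.43 and -1.95.

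The chromosomal passenger complex, which corrects wrong attachments, was uneven. Its kinase Aurkb read 9.17, 8.97 and 9.48 against 6.53, 7.91 and 7.38, a 3.82-fold difference (-1.93, SE 0.32, adjusted p = 0.00781). Its other subunits differed by less. Birc5 (survivin) fell by 1.09 (SE 0.16, adjusted p = 0.00568) and the scaffold Incenp by 0.79 (SE 0.12, adjusted p = 0.00599). Birc5 was dim, at 5.68, 5.69 and 6.10 against 4.57, 5.00 and 4.62, under the array median on all 3 ER arrays. Cdca8 (borealin) was the only member that missed the test, at 6.64, 6.88 and 7.21 against 6.19, 6.50 and 6.42 (-0.54, SE 0.16, adjusted p = 0.0536). Its groups did not overlap either, and with the culture letter as a replicate block it passed, which made 36 of 36. The fit with that block called 2502 of all genes lower, beside 1894 without it.

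All 5 measured genes of the spindle checkpoint and of anaphase onset fell, within a narrow range of -1.60 to -1.75. Cdc20, which turns on the anaphase-promoting complex, read 8.35, 8.13 and 8.45 against 6.11, 7.00 and 6.57 (-1.75, SE 0.22, adjusted p = 0.00449). The checkpoint kinase Bub1 read 7.39, 7.54 and 8.02 against 5.24, 6.50 and 6.14 (-1.69, SE 0.32, adjusted p = 0.0108). Bub1b, Mad2l1 and Ttk, the other checkpoint members, differed by slightly less than Bub1. Ttk lay under the array median on all 3 ER arrays, the other genes of this role on none.

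The 6 kinetochore and centromere genes fell by between 1.24 and 2.00. Ndc80, the microtubule-binding subunit of the outer kinetochore, differed by -1.24 (SE 0.19, adjusted p = 0.00609). Its partner Nuf2, without either motif in its promoter window, read 6.50, 6.67 and 6.65 against 4.02, 5.27 and 4.52. Cenpa, the histone variant that marks centromeres, read 7.21, 7.26 and 7.80 against 5.71, 6.40 and 6.14 (-1.34, SE 0.22, adjusted p = 0.00703). The 5 spindle motors and binding proteins all fell as well, from -1.65 to -2.05. Kif11, the kinesin that pushes spindle poles apart, went from 7.93 ± 0.29 to 6.16 ± 0.62 (-1.77, SE 0.30, adjusted p = 0.00801). Hmmr, a spindle protein, read 6.77, 6.71 and 7.00 against 4.21, 5.49 and 4.64. Nuf2 and Hmmr lay under the array median on 2 of 3 ER arrays and Ndc80 on 1, Cenpa and Kif11 on none.

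All 6 genes of the central spindle and cytokinesis fell. Racgap1, a subunit of centralspindlin, read 8.61, 8.58 and 8.86 against 6.04, 7.57 and 6.73. Its partner in that complex, the kinesin Kif23, differed least of this role, at 8.28, 8.10 and 8.49 against 7.60, 7.80 and 7.21 (-0.75, SE 0.17, adjusted p = 0.0213). Prc1, which bundles midzone microtubules, differed by -1.60 (SE 0.26, adjusted p = 0.00671) and Anln, a scaffold of the contractile ring, by -1.49 (SE 0.35, adjusted p = 0.0233). In a fit of all 13 arrays 29 members passed, where 1028 of all genes were called lower. Kif23, Anln, Incenp, Cdk1, Kif11 and Prc1 lost the call, with adjusted p of 0.158, 0.091, 0.0877, 0.0709, 0.0677 and 0.0661. Kif23 and Anln also lost it without single arrays: without EGFNWR array a their adjusted p was 0.0734 and 0.0573, without EGFNWR array c 0.0557 and 0.0584, Kif23 without ER array a 0.0613 and Anln without EGFNWR array b 0.0637. Of the chromosome proteins, Mki67 (Ki-67, which coats mitotic chromosomes) read 8.90, 8.69 and 9.13 against 5.92, 7.35 and 7.10 (-2.12, SE 0.35, adjusted p = 0.00729). Top2a, which untangles DNA, read 8.67, 8.49 and 8.85 against 5.74, 7.40 and 6.68 (-2.06, SE 0.37, adjusted p = 0.00925).

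The ER arrays were less alike than the EGFNWR arrays. Taken by letter, a pairing that the labels do not state, the median difference over the 36 genes was -2.10 for a, -1.04 for b and -1.79 for c. In each letter 36 of 36 genes were lower. ER array a lay lowest and ER array b highest. Markers of stomach pit and neck cells lay at other levels too. The 6 pit cell markers had medians of 8.51, 7.08 and 10.12 in EGFNWR and 12.47, 11.21 and 12.33 in ER medium, with summed levels (log2 of the sum of linear levels) of 11.31 to 13.46 and 14.18 to 14.89, and 5 of 6 over the array median throughout in both. The 5 mucous neck markers had medians of 9.84, 9.64 and 11.53 in EGFNWR and 6.84, 10.08 and 5.57 in ER medium, with summed levels of 13.10 to 13.32 and 12.45 to 13.03. Their members split, with 4 lower in mean in ER medium and Tff2 higher, at 12.16, 12.36 and 12.33 against 9.84, 9.48 and 11.56. Summed leukocyte markers were 8.71 to 9.28 in EGFNWR and 9.62 to 9.86 in ER medium, with Ptprc, Cd3e, Cd79a and Itgam under the median on every organoid array. The part of these cell types in the mitosis gene difference was not tested.

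**Figure D4:**
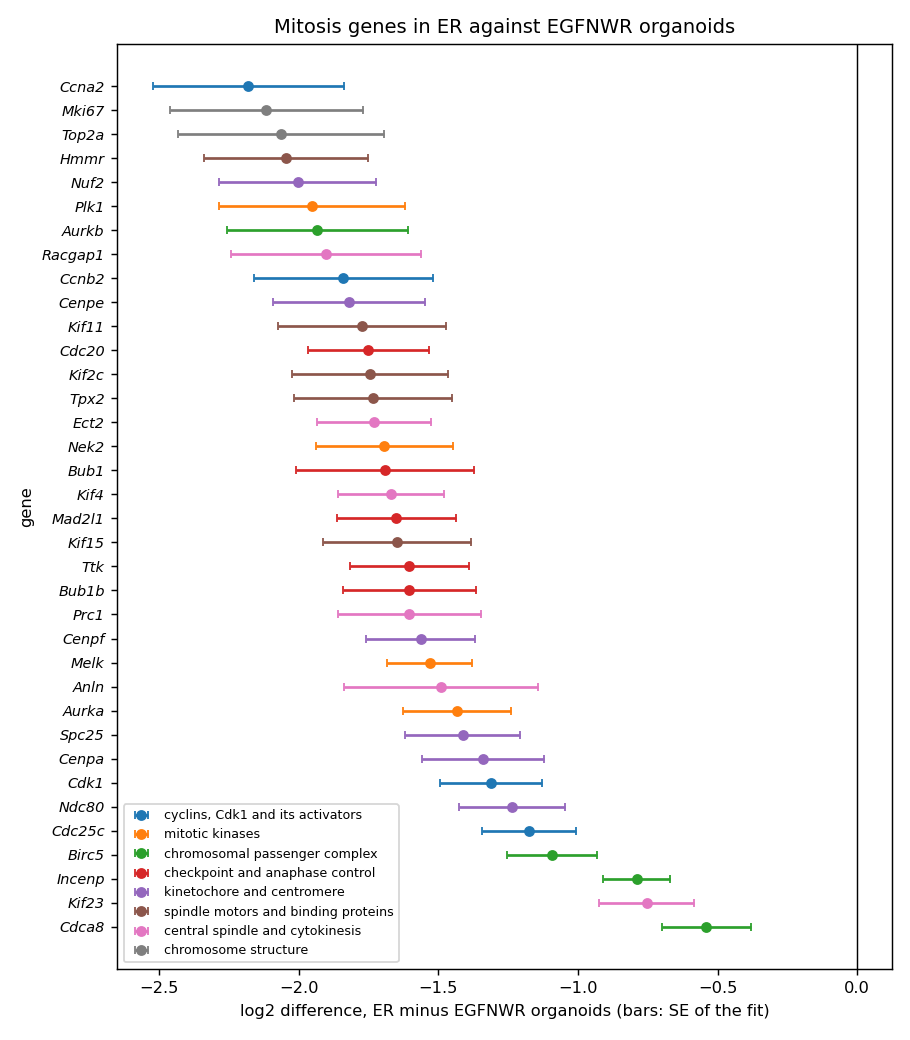
Log2 difference of each mitosis gene between ER and EGFNWR organoids (points, coloured by role; bars are the SE of the fit), ordered by size. Differences run from -2.18 for Ccna2 to -0.54 for Cdca8, and every point lies left of 0.

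Other genes of the cell cycle were read from further lists in the same comparison, where 10.1% of all genes were called lower. These lists were chosen with earlier results of these data known, so the order of their medians is a description only. Of 55 further mitosis genes 43 fell and 0 rose, with a median of -1.12, and Ckap2, a spindle protein, differed by -1.86 (adjusted p = 0.00446). Of 19 DNA replication genes 17 fell, with a median of -1.0, among them Rrm2, which makes deoxynucleotides, at -1.79 (adjusted p = 0.00797), and Mcm5, of the replicative helicase, at -1.65 (adjusted p = 0.00828). Condensin and cohesin genes fell in 10 of 16, including the condensin subunits Ncapd2 at -1.85 and Ncapg at -1.81 (adjusted p = 0.00453 for both). Stag2, a cohesin subunit, differed by 0.25 (adjusted p = 0.0913). Regulators of these promoters were mixed: of 19 MuvB, Myb, E2F and pocket protein genes 8 fell and 1 rose. E2f8 differed by -1.50 (adjusted p = 0.00805) and Mybl2, which encodes B-Myb, by -1.38 (adjusted p = 0.016), while the MuvB subunit Lin37 rose by 0.59 (adjusted p = 0.01). Of 13 subunits of the anaphase-promoting complex 2 fell, Cdc16 (-0.63, adjusted p = 0.0109) and Anapc5 (-0.56, adjusted p = 0.00879). That share is near the one of all genes, and the median of this list was -0.11, with 5 of 13 differences above 0.

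**Figure D5:**
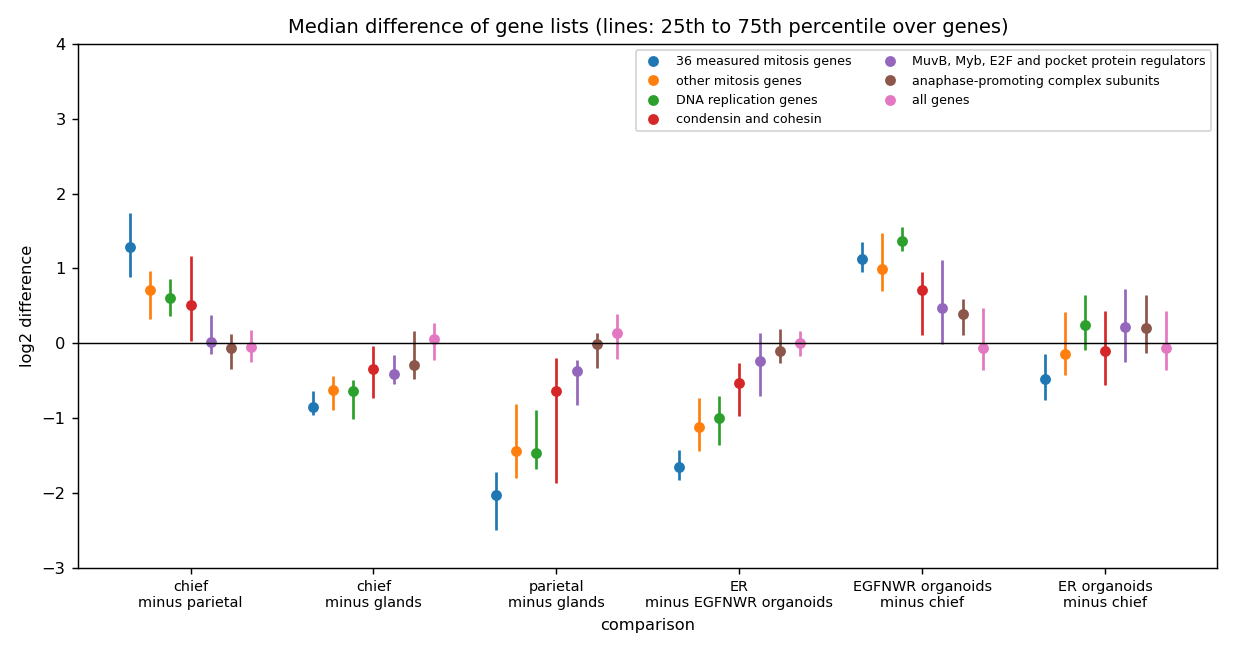
Median log2 difference (points) and the 25th to 75th percentile over genes (lines) of the 36 mitosis genes, 5 further cell cycle lists and all genes, in each of 6 comparisons. In ER against EGFNWR organoids the medians run from -1.66 for the mitosis genes through -1.12 for further mitosis genes to 0.01 for all genes.

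Organoids were next set against the sorted chief cells of the first experiment, which no label names as their source, in a fit of all 13 arrays, where culture, handling and experiment cannot be told apart. In EGFNWR organoids 25 of the 36 genes were higher than in chief cells and 0 lower, where 24.1% of all genes were called higher and 16.2% lower. The groups did not overlap for 27 genes (26.8% of all genes). The median difference was 1.13, against -0.07 over all genes. Racgap1 rose most, by 1.78 (SE 0.36, adjusted p = 0.0021), from 7.28, 7.24 and 6.19 in chief cells. Ect2, which activates RhoA at the cell equator, rose by 1.73 (SE 0.45, adjusted p = 0.00905) and Cdk1 by 1.71 (SE 0.41, adjusted p = 0.00606). In the main fit all 4 mitotic kinases and all 5 checkpoint and anaphase genes rose. Aurka differed by 1.32 (SE 0.31, adjusted p = 0.00533) and Bub1 by 1.54 (SE 0.43, adjusted p = 0.014). Plk1 and Cdc20 lost the call in several other fits, with adjusted p of 0.164 and 0.0856 under array weights. Without chief array c these were 0.13 and 0.066. Bub1 lost it under array weights (0.071) and without EGFNWR array c (0.0533).

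Mki67 and Birc5 did not follow. Mki67 read 8.84, 9.96 and 7.49 in chief cells and 8.90, 8.69 and 9.13 in EGFNWR organoids, so chief array b lay above every organoid array (0.14, SE 0.51, adjusted p = 0.837). Birc5 differed by 0.21 (SE 0.28, adjusted p = 0.563) and Cenpf, a kinetochore protein, by 0.67 (SE 0.37, adjusted p = 0.169). Top2a differed by 1.34 (SE 0.55, adjusted p = 0.0705), with 7.66, 8.49 and 5.85 on the chief arrays. The count turned on single arrays: it was 34 without chief array b, 17 without chief array c and 14 without EGFNWR array c. It was 12 with array weights and 16 with the 2 groups alone. Over all genes these fits called 4268, 4222, 4090, 3782 and 3721 higher, in that order, beside 4535 in the main fit. Of the other lists, 38 of 55 further mitosis genes and 17 of 19 replication genes rose. Gtse1, a microtubule-binding protein, differed by 2.48 (adjusted p = 0.000364) and the helicase subunit Mcm7 by 2.19 (adjusted p = 0.000105).

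Against chief cells, ER organoids gave few calls. Of the 36 genes 5 fell (Mki67, Birc5, Cdc20, Cenpa and the Ndc80 complex subunit Spc25) and 0 rose, a share of 13.9% where 17.1% of all genes were called lower and 22.8% higher, so the count does not stand above the background. The median difference was -0.48. Mki67 was lower on every ER array than on any chief array (-1.97, SE 0.51, adjusted p = 0.00914). Cenpa differed by -0.65 (SE 0.21, adjusted p = 0.0268), Birc5 by -0.88 (SE 0.28, adjusted p = 0.0249) and Cdc20 by -0.80 (SE 0.28, adjusted p = 0.0424). In the other direction Cdk1 differed by 0.40 (SE 0.41, adjusted p = 0.463) and Kif23 by 0.38 (SE 0.30, adjusted p = 0.329). Without chief array c 21 of the 36 genes were lower, and 2847 of all genes. Without chief array b, ER array a or ER array c 1 was lower, without chief array a 2, and centring arrays on their medians left 1. Over all genes those fits called 2864, 2128, 2661, 4390 and 1807 lower, in that order. The EGFNWR and ER comparisons share the chief arrays.

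In the first experiment the sorted chief cells were compared with the sorted parietal cells. All 36 genes had a higher mean in chief than in parietal cells, with a median difference of 1.29 (2.44-fold) against -0.04 over all genes, but 0 passed the test, as did 0% of all genes in either direction in this fit. At an unadjusted p under 0.05, 26 of the 36 were higher (5.86% of all genes), and for 23 every chief array lay above both parietal arrays (10.9% of all genes). Top2a read 7.66, 8.49 and 5.85 in chief cells and 4.99 and 4.91 in parietal cells (2.38, SE 0.65, adjusted p = 0.348). Ccna2 read 9.03, 9.79 and 7.41 against 6.55 and 6.26 (2.34, SE 0.59, adjusted p = 0.348). Mki67 read 8.84, 9.96 and 7.49 against 6.70 and 6.36 (2.23, SE 0.60, adjusted p = 0.348). In each of these genes chief array c lay nearest the parietal arrays. Top2a lay under the array median on both parietal arrays, Ccna2 and Mki67 on neither.

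The smallest differences were those of Ndc80 (0.16, SE 0.20, adjusted p = 0.797), Cenpa (0.16, SE 0.20, adjusted p = 0.796) and Cdc25c (0.26, SE 0.27, adjusted p = 0.741). Cenpa read 6.66, 6.85 and 6.70 against 6.67 and 6.48, so its groups overlapped and its chief arrays were alike. The count turned on chief array c. Without it 28 of the 36 genes passed as higher in chief cells, in a fit that called 910 genes higher and 409 lower, and the median was 1.74. Without chief array b the median was 0.87. The level of the mitosis genes on the chief arrays ran opposite to that of the parietal markers, with medians of 6.49, 6.92 and 5.26 beside 9.92, 8.38 and 10.31 on a, b and c. Chief array b, the highest, also carried the squamous markers at 8.21. The 5 mucous neck markers had summed levels of 13.75 to 14.63 in chief and 13.23 to 13.31 in parietal cells, with 5 and 4 of 5 over the array median. The part of these cells in the difference was not tested. Of the other lists 0 genes passed, and medians were 0.71 for further mitosis and 0.61 for replication genes.

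Whole glands hold every cell type of the corpus, the isthmus included. Against glands all 36 genes had a lower mean in chief cells, with a median difference of -0.86 (0.05 over all genes), and 0 passed the test, where 0.351% of all genes were called lower and 0.128% higher. At an unadjusted p under 0.05, 10 were lower (27.8%, all genes 8.69%), and 14 had no overlap (38.9%, all genes 15.1%). Ccnb2 read 9.15, 9.62 and 7.73 in chief cells and 10.00 and 10.18 in glands (-1.26, SE 0.50, adjusted p = 0.308). Ndc80 read 5.23, 5.35 and 5.14 against 6.23 and 5.95 (-0.85, SE 0.20, adjusted p = 0.139), with an even chief group. Mki67 overlapped, since chief array b at 9.96 lay above both gland arrays at 9.33 and 9.49. Cdc20 differed by -0.22 (SE 0.33, adjusted p = 0.773), the smallest of the set. The median was -0.35 without chief array c and -1.18 without chief array b. Pit, enteroendocrine and tuft cell markers were higher in glands: summed levels were 15.02 to 15.27, 13.02 to 13.61 and 8.75 to 9.08 there and 13.43 to 14.79, 10.98 to 12.29 and 6.91 to 7.01 in chief cells, with 5, 6 and 5 markers over the array median in glands and 5 of 6, 5 of 7 and 0 of 6 in chief cells. Chief array a, the nearest to the glands over all probesets, had the pit markers at a median of 12.22. The part of these cell types was not tested, and handling cannot be told apart from cell type here.

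Parietal cells and glands lay farthest apart within the first experiment. For all 36 genes both parietal arrays lay below both gland arrays (24.8% of all genes), with a median difference of -2.03 (4.08-fold) against 0.14 over all genes. By the test 5 fell (13.9%) and 0 rose, where 1.39% of all genes were called lower and 0.228% higher. Ccnb2 read 7.03 and 6.48 in parietal cells and 10.00 and 10.18 in glands (-3.33, SE 0.55, 10.1-fold, adjusted p = 0.0376). Bub1 read 4.44 and 4.27 against 7.08 and 7.59 (-2.98, SE 0.54, adjusted p = 0.0444). The others that fell were Racgap1 (5.00 and 5.33 against 7.60 and 7.92), the kinase Melk (4.83 and 5.07 against 6.81 and 7.18) and Nuf2 (4.29 and 4.15 against 6.26 and 6.21). Several larger differences just missed, among them Ccna2 (-3.31, SE 0.65, adjusted p = 0.0538), Anln (-3.21, SE 0.64, adjusted p = 0.0551) and Top2a (-3.26, SE 0.71, adjusted p = 0.0657). Cdc25c differed least (-0.49, SE 0.30, adjusted p = 0.364), at levels of 4.25 and 4.39 against 4.68 and 4.94, all under the array medians. Bub1, Melk, Nuf2, Top2a and Anln lay under the array median on both parietal arrays and Racgap1 on 1, Ccnb2 and Ccna2 on neither. With 20 and 23 of the 36 genes under it on parietal arrays a and b, the size of the median difference is uncertain too.

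The count in this comparison depended strongly on the fit. It was 34 with array weights or with parietal cells and glands alone, 33 with all 13 arrays and 32 with the letter as a replicate block. Those fits also called more of all genes lower, 1809, 1509, 1601 and 1037 in that order, beside 261 in the main fit. Fits with dim genes left out, repeated quantile normalization and all probesets called 338, 90 and 60 lower in all. In these the count of mitosis genes was 11, 1 and 0. It was 0 without parietal array a, parietal array b or gland array b and 1 without gland array a. The 9 parietal markers had medians of 10.62 and 10.50 in parietal cells and 9.56 and 8.25 in glands, and the summed pit markers were 13.82 to 13.94 against 15.02 to 15.27. Of the other lists 7 of 55 further mitosis genes fell, among them Arhgap11a (-3.25, adjusted p = 0.0401), and 1 replication gene, Rrm2 (-2.38, adjusted p = 0.0444).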

How the data were processed

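RNA of 13 mouse samples was measured on 13 arrays. The authors deposited log2 levels of 35556 probesets. The submitters' processing notes name RMA and Affymetrix Power Tools, with no version (not given in the sources used here). Because RMA brings arrays to nearly 1 common distribution, it hides shifts that most genes share. No detection call was used. Precision is limited by how few arrays each group has.

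Of the probesets, 21218 had 1 gene symbol in the platform annotation, 1881 had several and 12457 were unnamed here. Of several single-symbol probesets, a gene was read from the brightest (mean of the 13 arrays). Groups followed the sample titles. Group means were fitted with limma 3.58.1 in R 4.3.3 (lmFit, eBayes), in a fit of the 7 arrays of the first experiment, of the 6 organoid arrays, and of all 13 arrays for organoids against chief cells, without a block. P-values were Benjamini-Hochberg adjusted over 18820 genes with a threshold of 0.05. The fit was checked on simulated data with noise drawn independently for each gene and array. That check does not cover shifts that many genes share on an array. Deviations from group means correlated at 0.184, 0.233 and 0.386 between organoid arrays of the same letter. Between ER and EGFNWR arrays of different letters they correlated at -0.305 to 0.146. The main organoid fit is unpaired. The letter entered as a block only in a repeat of that fit, a pairing that the labels do not state.

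The members and gene lists were chosen with earlier results of these data known. Members given with a difference and SE were 1 or more representatives of each role and, per comparison, the 3 with the largest and the 3 with the smallest signed difference; list genes were the 2 largest and the 2 smallest per list. The fits were repeated after a further quantile normalization, after median centring of each array, on brighter genes only, with eBayes set to trend and robust, with array weights (statmod 1.5.0), with the mean of all single-symbol probesets, over all probesets, with another set of arrays in the fit, with the letter as a replicate block, and without each array in turn.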

Additional observations from a re-analysis of the deposited data

How the results depend on the processing

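Between ER and EGFNWR organoids the count of lower mitosis genes was 29 to 36 under every alternative run, 33 to 35 without 1 array, and all differences kept their sign. In the first experiment letters were taken as names only: same-letter deviations correlated at 0.263 and 0.11 for chief and parietal, -0.194 and 0.0693 for chief and gland arrays. With the replicate block, which chief array c does not enter, 29 mitosis genes were higher in chief than in parietal cells (968 of all genes). With the same block 32 were lower in parietal cells than in glands (1037 of all genes). Against glands Cdc20, Prc1 and Nek2 turned to 0.10, 0.01 and 0.04 in chief cells. With 1 array left out, counts ran from 0 to 28 for chief above parietal, 0 to 1 for parietal below glands (median difference -2.24 to -1.89), 14 to 34 for EGFNWR above chief, and 1 to 21 lower and 0 to 1 higher for ER against chief. Chief cells against glands gave 2 lower mitosis genes with all 13 arrays, where 815 of all genes were called lower. Parietal cells against glands gave 1 (quantile), 11 (dim genes left out), 34 (array weights, and the 2 groups alone), 0 (all probesets) and 33 (all 13 arrays). EGFNWR organoids against chief cells gave 12 (array weights) and 16 (2 groups alone), with Mki67 at -0.0059 under array weights. ER organoids against chief cells gave 3 (quantile, and all probesets), 1 (centred, and 2 groups alone) and 2 (array weights). Over all genes 2669 were lower (quantile), 1807 (centred), 1845 (2 groups alone) and 2516 (array weights), and 5901 over all probesets. Ndc80 turned to 0.086 under quantile normalization and to 0.08 when centred, as did Aurka to 0.083, Bub1 to 0.05 and Prc1 to 0.10. Ranges that cross 0 without 1 array were -0.05 to 0.37 for Ndc80 in chief against parietal cells; -0.53 to 0.10 for Cdc20, -0.73 to 0.04 for Nek2 and -1.21 to 0.01 for Prc1 in chief cells against glands; -0.15 to 0.52 for Birc5 and -0.49 to 0.74 for Mki67 in EGFNWR organoids against chief cells; and, in ER organoids against chief cells, -0.93 to 0.27 for Anln, -0.47 to 0.14 for Aurka, -0.81 to 0.063 for Aurkb, -0.69 to 0.26 for Bub1, -0.24 to 0.46 for Cdca8, -0.23 to 0.82 for Cdk1, -0.26 to 0.07 for Ndc80 and -0.68 to 0.54 for Prc1. Fewer arrays or another set of arrays in the fit changes the estimate of spread; other causes were not tested. Without a detection call, differences of members under the array median have no certain size.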

Other observations

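Across the 36 mitosis genes, those with a larger difference between chief and parietal cells had a larger fall in ER medium, at Pearson -0.638 and Spearman -0.690. The comparisons share no array, but they share each gene's probeset, and the chief to parietal difference also went with the mean level over the 13 arrays (Pearson 0.623, Spearman 0.606), and for the ER to EGFNWR difference the values were Pearson -0.278 and Spearman -0.324.

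Of 14612 genes with a promoter window outside the cell cycle lists, 1084 hold both a CHR match and a CCAAT box. In ER against EGFNWR organoids 125 of the 1084 were called lower (11.5%) and 76 higher (7.01%), with a median difference of -0.02. Of all 14612 genes 10.1% were lower and 9.36% higher, and of the 7038 with neither motif 9.11% and 9.96%. What lies behind these shares was not tested. The 4 measured mitosis genes with a window but neither motif (Nuf2, Melk, Birc5 and Mad2l1) were all lower in ER medium, with a median of -1.59, beside -1.67 for the 21 with both motifs.

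Mad2l1 has a second single-symbol probeset that is not dim. It read 8.13, 8.00 and 7.95 in EGFNWR and 5.94, 6.92 and 6.36 in ER organoids, with no overlap, as on the first probeset.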
